A study of Mus musculus with 2 samples.

Results

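Notch signalling genes were compared between mammary basal cell cultures grown alone and cultures grown with M2-like macrophages. The 10 genes were chosen by name, with earlier results of these data known. They were the receptors Notch1, Notch2, Notch3 and Notch4, the ligands Jag1, Jag2 and Dll1, and the targets Hes1, Hey1 and Nrarp. All 10 were found among the 49492 genes of the count table. All 10 also passed the filter of at least 10 reads summed over both libraries, which left 19233 genes for testing. Basal cells were sorted by FACS from mammary glands of adult female wild-type mice and cultured in 3D matrix gel for 11 to 14 days, and colonies and organoids were harvested whole. The ctrl group was untreated, and the M2 group shared its wells with M2-like macrophages derived from bone marrow, which per the study's methods sat in a transwell insert and not in the gel. Each group held 1 library, of 26912610 reads (ctrl) and 29413844 reads (M2), so no difference below has a replicate check, and every test compares these 2 libraries rather than the conditions.

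Notch receptors are single-pass membrane proteins that bind Jagged or Delta-like ligands on a neighbouring cell. Ligand binding lets ADAM proteases and γ-secretase release the intracellular domain, which enters the nucleus, joins Rbpj and turns on genes such as Hes1, Hey1 and Nrarp. In the mammary gland the pathway is known for its part in luminal cell fate, and Dll1 is known from mammary stem cells.

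Jag1, a ligand, was 2.13-fold higher in the M2 library, and the receptors Notch3 and Notch1 were 2.13-fold and 2.003-fold lower, with Notch1 on the threshold itself. The targets Hes1 and Hey1 were 1.93-fold and 1.505-fold lower and Nrarp was 1.48-fold higher, none of them past 2-fold. Across the 10 genes, 7 had a lower and 3 a higher value in M2, and the median log2 difference was -0.44, against -0.0032 for all genes tested. A gene was called where the exact binomial test on its reads gave an adjusted p under 0.05 and the libraries were 2-fold or more apart. By this rule 1 gene was called higher, 2 lower and 7 in neither direction. Among all genes tested 8.16% were called higher, 6.55% lower and 14.7% in either direction, against 3 of these 10. With a biological coefficient of variation of 0.2 assumed in the exactTest of edgeR, 0 of the 10 genes were called and 8.61% of all genes. With 0.4 assumed, 0 of the 10 were called and 1.59% of all genes.

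The sequences around the RefSeq start of the 3 called genes are shown because these genes differ in direction, together with that of Nrarp, the only one of the 8 genes with a listed sequence to hold CACGTG, one form of the E-box. They are RefSeq sequences on GRCm38.p6 of 300 bases, from 250 bases before the annotated start to 50 bases from it, written 5′ to 3′ on the strand of the gene, and capitals mark the first transcribed base and, in Nrarp, CACGTG. For Notch1 this start lies inside the gene as counted, whose outermost exon begins 12.8 kb further upstream, and for Jag1 it lies 124 bases inside.
Notch1, chr2:26503773-26504072, minus strand: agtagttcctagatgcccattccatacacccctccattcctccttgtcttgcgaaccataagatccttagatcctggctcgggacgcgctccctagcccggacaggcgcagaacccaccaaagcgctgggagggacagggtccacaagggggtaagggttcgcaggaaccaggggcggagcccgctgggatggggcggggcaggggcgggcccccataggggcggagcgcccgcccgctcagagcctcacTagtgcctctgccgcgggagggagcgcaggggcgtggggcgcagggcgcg
Notch3, chr17:32166841-32167140, minus strand: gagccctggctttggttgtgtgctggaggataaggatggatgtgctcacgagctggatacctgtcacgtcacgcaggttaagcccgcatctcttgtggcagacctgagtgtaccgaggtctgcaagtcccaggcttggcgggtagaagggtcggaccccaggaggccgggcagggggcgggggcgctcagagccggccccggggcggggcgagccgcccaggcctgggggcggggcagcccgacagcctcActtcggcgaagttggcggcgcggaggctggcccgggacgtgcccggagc
Jag1, chr2:137116471-137116770, minus strand: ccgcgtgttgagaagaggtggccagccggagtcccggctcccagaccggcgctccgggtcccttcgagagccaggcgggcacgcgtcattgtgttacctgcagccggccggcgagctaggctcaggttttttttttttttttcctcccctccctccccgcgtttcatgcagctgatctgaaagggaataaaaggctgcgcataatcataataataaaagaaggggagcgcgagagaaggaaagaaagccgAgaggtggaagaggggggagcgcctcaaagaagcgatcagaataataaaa
Nrarp, chr2:25180508-25180807, plus strand: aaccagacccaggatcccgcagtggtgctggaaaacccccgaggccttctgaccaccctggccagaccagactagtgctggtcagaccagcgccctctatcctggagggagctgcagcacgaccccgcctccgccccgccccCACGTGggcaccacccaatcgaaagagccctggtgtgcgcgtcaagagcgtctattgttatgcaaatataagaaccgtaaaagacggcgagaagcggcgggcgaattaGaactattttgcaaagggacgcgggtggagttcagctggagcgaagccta

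The Notch1 and Notch3 sequences were rich in G and C, with 68.3% and 70.0% of bases, and that of Jag1 held 55.7%, against a median of 52.7% over 32851 promoters of the table. They held 23, 25 and 22 CG pairs, where the median promoter held 7. Neither TGGGAA, the core of the Rbpj binding site, nor the longer GTGGGAA, which contains it, was found on either strand in any of the 9 listed sequences of the 8 genes, Dll1 having 2. TGGGAA was present in 25.6% and GTGGGAA in 6.38% of all promoters. CACGTG, a palindromic E-box bound by basic helix-loop-helix proteins, began 108 bases before the Nrarp start and was present in 7.15% of all promoters. Other forms of the E-box and of the Rbpj site were not counted, so sites of these kinds may be present. Hes1 and Hey1 had no entry. These matches describe the letters in a short window only.

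The receptors were examined first. Notch1 (chromosome 2, 26457903 to 26516663 on GRCm38, minus strand), a receptor with roles in luminal cell fate, had 11290 reads in ctrl against 5912 in M2. Normalised read counts (CPM), scaled by the effective library size, were 411 and 205. The log2 difference was -1.002, with a 95% interval of -1.05 to -0.96 that covers counting error only. The interval holds the 2-fold line, and with upper quartile or relative log expression scaling the value was -0.999 for both and the call was lost. Notch1 lay below 92.2% of all genes tested.

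Notch3 (chromosome 17, 32120820 to 32166880, minus strand), a receptor known from luminal progenitors and from mural cells of vessels, had 9823 reads in ctrl against 4838, or 358 and 168 CPM. Its log2 difference of -1.09 (95% interval -1.14 to -1.04) was the lowest of the 10 genes, and it lay below 93.2% of all genes. Notch2 (chromosome 3, 98013527 to 98150361, plus strand) had 3501 and 3168 reads, or 127 and 110 CPM. Its log2 difference was -0.21 (-0.28 to -0.14), which is between the quartiles of all genes. Notch4 (chromosome 17, 34564268 to 34588503, plus strand), a receptor known from endothelium, had only 42 and 63 reads, or 1.53 and 2.19 CPM. Its log2 difference of 0.50 (-0.07 to 1.11) was not separated from 0 at this depth, and the exact binomial p, adjusted over all genes, was 0.130.

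**Figure D1:**
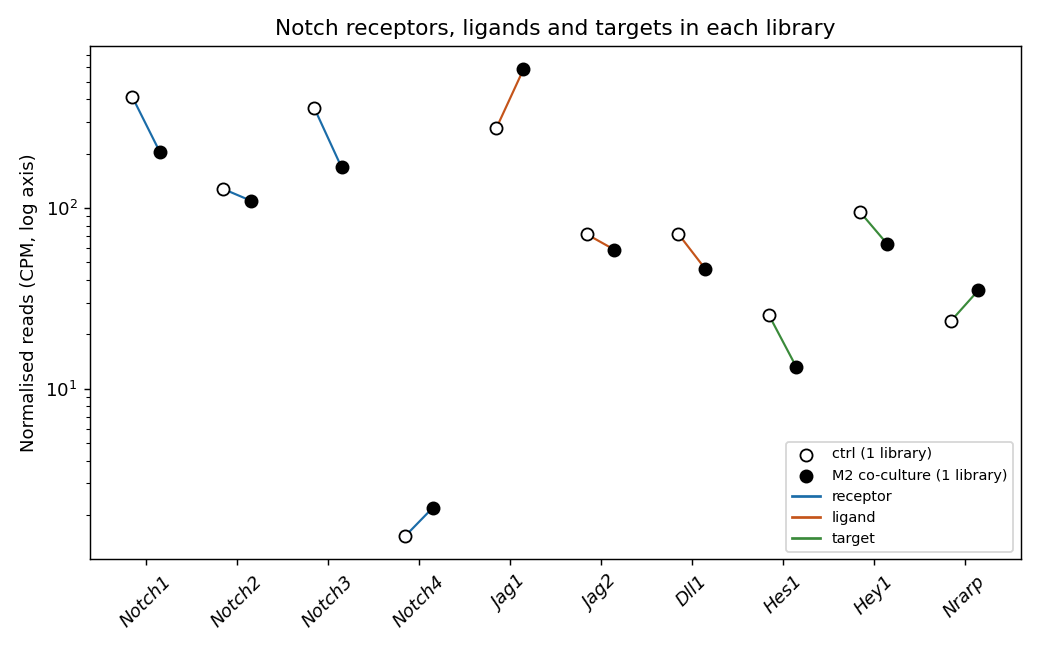
Normalised reads (CPM, log axis) of the 10 genes, with open circles for the ctrl library, filled circles for the M2 library and lines coloured by role. Jag1 goes from 276 to 586 CPM, Notch1 and Notch3 fall from 411 and 358 to 205 and 168 CPM, and Notch4 stays near 2 CPM in both.

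Among the ligands, Jag1 alone was higher in M2. Jag1 (chromosome 2, 137081456 to 137116644, minus strand), a Jagged ligand, had 7576 reads in ctrl against 16901 in M2, or 276 and 586 CPM. The log2 difference of 1.09 (95% interval 1.05 to 1.13) exceeded that of 91.3% of all genes tested. Jag2 (chromosome 12, 112908590 to 112929495, minus strand), the other Jagged ligand, had 1962 and 1694 reads, or 71.4 and 58.8 CPM, with a log2 difference of -0.28 (-0.38 to -0.19). Dll1 (chromosome 17, 15367354 to 15376872, minus strand), a Delta-like ligand, had 1983 and 1325 reads, or 72.2 and 46.0 CPM, and a difference of -0.65 (-0.75 to -0.55). Neither Jag2 nor Dll1 reached 2-fold.

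The targets did not move in one direction. Hes1 (chromosome 16, 30064384 to 30067796, plus strand), a transcriptional repressor, had 700 reads in ctrl against 380 in M2, or 25.5 and 13.2 CPM. Its log2 difference of -0.95 (-1.13 to -0.77) fell just short of 2-fold, and with library totals in place of TMM it was -1.01 and called. Hey1 (chromosome 3, 8663359 to 8667256, minus strand), a related repressor, had 2614 and 1822 reads, or 95.2 and 63.2 CPM, with a difference of -0.59 (-0.68 to -0.50). Nrarp (chromosome 2, 25180758 to 25183339, plus strand), a small ankyrin repeat protein that limits Notch signalling and is itself induced by it, had 651 and 1008 reads, or 23.7 and 35.0 CPM. Its difference of 0.56 (0.42 to 0.71) was opposite in sign to Hes1 and Hey1. None of the 3 targets was called.

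**Figure D2:**
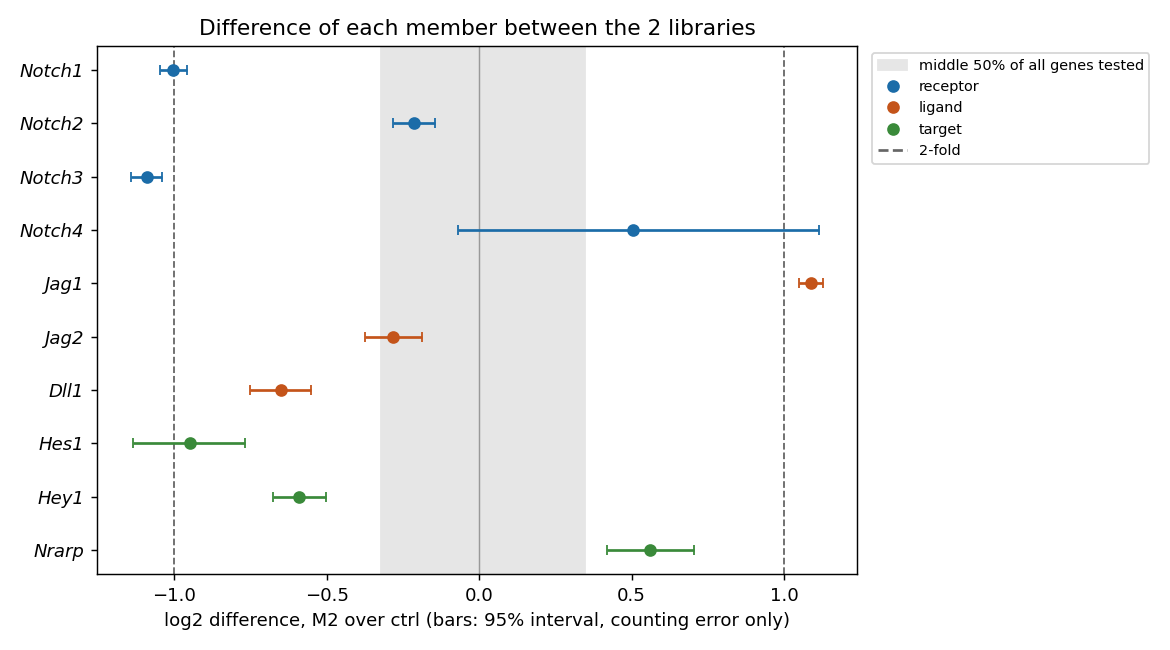
Log2 difference (M2 over ctrl) of each gene with its 95% interval for counting error, dashed lines at 2-fold and a grey band between the quartiles of all genes tested (-0.32 to 0.35). Jag1 lies beyond the upper line and Notch3 beyond the lower line, the Notch1 interval crosses it, and Notch2 and Jag2 fall in the band.

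At the 2-fold line, Notch1 (-1.002) lies just inside and Hes1 (-0.95) just outside. With a threshold of 1.5-fold instead, 1 gene was called higher and 5 lower, namely Notch1, Notch3, Dll1, Hes1 and Hey1, where 12.8% of all genes were called higher and 11.1% lower. No call of these genes survived an assumed coefficient of variation of 0.2, for which the adjusted p over all genes in the edgeR exactTest was 0.0864 for Notch3, 0.0870 for Jag1 and 0.137 for Notch1.

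Several of these genes share exon bases with another annotated gene, and because the use of strand in counting is not given in the sources used here, their reads cannot be told apart. Nrarp is the most affected. The gene Gm38287 on the opposite strand lies within Nrarp over all of its 2051 exon bases, which are 79.4% of those of Nrarp, and it was listed with 603 and 911 reads, a log2 difference of 0.53 (95% interval 0.38 to 0.68). The value of Nrarp is therefore uncertain. For Dll1 the shared part was 20.5% of its exon bases, with A930024N18Rik on the opposite strand (223 and 181 reads). For Notch1 it was 7.50% with 0610009E02Rik (1386 and 630 reads) and 2.91% with Gm13568 (90 and 38 reads), both on the opposite strand, for Notch3 6.07% with Gm17276 (292 and 148 reads) on the opposite strand, and for Notch2 5.02% with Gm42820 (376 and 345 reads) on the same strand. Notch4, Jag1, Jag2, Hes1 and Hey1 shared no exon base with another listed gene.

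To compare levels between genes, reads were divided by gene length and scaled to a common total (TPM). The length covers all annotated exon bases, 14232 for Notch1 and 8044 for Notch3. Which transcripts were present is not known, so levels, shares and ratios between genes rest on these lengths. Without length, Notch1 stood above Notch3 in both libraries (411 and 358 CPM in ctrl, 205 and 168 in M2). In ctrl the order was Jag1 (123 TPM), Notch3 (116 TPM), Hey1 (75.8 TPM), Notch1 (75.1 TPM), Jag2 (45.8 TPM), Dll1 (44.5 TPM), Hes1 (32.5 TPM), Notch2 (30.7 TPM), Nrarp (23.9 TPM) and Notch4 (0.493 TPM). The neighbours Hey1 and Notch1, Jag2 and Dll1, and Hes1 and Notch2 had overlapping 95% Poisson intervals, so their order is not resolved. In M2 the order was Jag1 (254 TPM), Notch3 (52.6 TPM), Hey1 (48.8 TPM), Jag2 (36.6 TPM), Notch1 (36.4 TPM), Nrarp (34.2 TPM), Dll1 (27.5 TPM), Notch2 (25.7 TPM), Hes1 (16.3 TPM) and Notch4 (0.684 TPM). There the intervals of Jag2 and Notch1, of Notch1 and Nrarp, and of Dll1 and Notch2 overlapped. Jag1 stood at percentile 96.0 of genes with reads in ctrl and 98.1 in M2, and Notch4 at 31.7 and 34.8.

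The make-up of each role differed between the libraries. Of the summed receptor TPM, Notch3 took 52.1% in ctrl and 45.6% in M2, Notch1 33.8% and 31.5%, Notch2 13.9% and 22.3%, and Notch4 0.222% and 0.593%. Of the 3 ligands, Jag1 took 57.7% of the summed TPM in ctrl and 79.9% in M2, while Jag2 went from 21.5% to 11.5% and Dll1 from 20.9% to 8.65%. Summed receptor TPM was 222 in ctrl and 115 in M2, and summed ligand TPM was 213 and 318, so that the ratio of ligands to receptors was 0.962 in ctrl and 2.75 in M2. Per length, the level of Jag1 was 1.64 times that of Notch1 in ctrl and 6.98 times in M2. Both ratios, and the receptor shares and sums, depend on the 14232 bases taken as the length of Notch1.

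**Figure D3:**
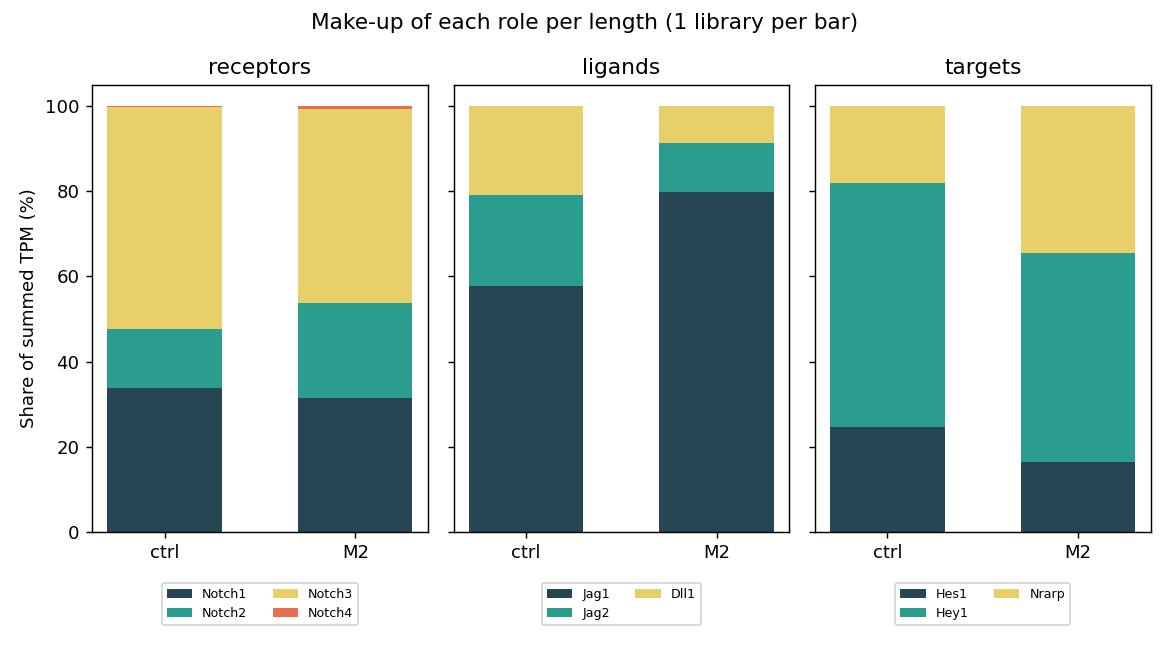
Share (%) of the summed TPM of receptors, ligands and targets that each gene took, with 1 bar per library. Jag1 takes 57.7% of the ligand sum in ctrl and 79.9% in M2, and Notch2 widens from 13.9% to 22.3% of the receptor sum.

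Ratios of 2 genes within a role do not depend on how the libraries are scaled. All 12 pairs among receptors, among ligands and among targets were computed, and the 95% interval for counting error left out 0 in all 12. Jag1 over Dll1 changed by a log2 value of 1.74 (1.63 to 1.85) and Jag1 over Jag2 by 1.37 (1.27 to 1.47). Jag2 over Dll1 changed less, by 0.37 (0.23 to 0.51). Notch1 and Notch3 kept nearly the same ratio, with a change of 0.09 (0.02 to 0.16) in Notch1 over Notch3, whereas Notch1 over Notch2 changed by -0.79 (-0.87 to -0.71) and Notch2 over Notch3 by 0.88 (0.79 to 0.96). Hes1 over Nrarp changed by -1.51 (-1.74 to -1.28), a value that carries the doubt on Nrarp, and Hes1 over Hey1 by -0.36 (-0.56 to -0.16). Within each role the genes thus did not all change alike between these 2 libraries, judged by counting error alone. At this depth even the 1.06-fold change of Notch1 over Notch3 left out 0. Variation between libraries of 1 condition is not covered by these intervals.

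The rest of the pathway was described with 7 lists holding 71 genes, of which 63 had enough reads to be tested. Only 1 was called higher and 3 lower, 6.35% against 14.7% of all genes. At a threshold of 1.5-fold, 4 were called higher and 5 lower, where 12.8% of all genes were called higher and 11.1% lower. The median of these 63 genes was -0.15. With an assumed coefficient of variation of 0.2, 2 of the 63 were called, against 8.61% of all genes.

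Of 5 other and atypical ligands, 3 had enough reads and 1 was called lower. Dlk1, a Delta-like protein that lacks the DSL domain of the canonical ligands, had 10 reads in ctrl against 0. With M2 set to the limit of 3 reads it was 3.50-fold lower, and the 95% interval for counting error in both libraries reached down to 2.35-fold. Dll4, an endothelial ligand, had 13 and 10 reads, the most reads of this list, so that Jag1, Jag2 and Dll1 gave nearly all ligand reads.

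None of the 7 tested glycosyltransferases, which modify the receptor and tune ligand choice, was called. Their log2 differences lay between -0.47 and 0.45, and Gxylt1, with the most reads (1722 and 2463), had the highest value. Lfng, the Fringe enzyme best known from this pathway, had 192 and 259 reads, a difference of 0.36 (0.09 to 0.64). None of the 10 cleavage enzymes was called either, and their values ran from -0.66 to 0.51 with a median of -0.24. Adam10, the protease that makes the first ligand-dependent cut, had 5742 and 6701 reads and a difference of 0.15 (0.10 to 0.20). Ncstn, a subunit of γ-secretase, had 3881 and 4080 reads and a difference of 0.0029 (-0.06 to 0.07). Lfng and Ncstn were picked with their values known.

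Among 13 genes of ligand endocytosis and receptor turnover, 1 was called lower. Neurl1b, a ubiquitin ligase of the Neuralized family that acts on ligands, had 227 and 62 reads and a log2 difference of -1.92 (-2.37 to -1.53). Mib1, the main ligase for Notch ligands and the gene with the most reads in this list, had 4321 and 4093 reads and a difference of -0.15 (-0.21 to -0.08). Just short of 2-fold on the higher side were Neurl1a (28 and 57 reads, 0.93) and Dtx3l (1362 and 2705 reads, 0.92), both picked with their values known.

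In the nuclear complex 1 of 21 genes was called. Rbpjl, a paralog of Rbpj known from pancreatic acinar cells, had 281 and 140 reads and a difference of -1.07 (-1.38 to -0.78), and its interval holds the 2-fold line. Rbpj itself, picked with its values known, had 2494 and 3234 reads, a difference of 0.31 (0.23 to 0.38).

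Of 7 other Hes and Hey genes 4 were tested. Heyl, a Hey family repressor, had 19 and 56 reads, and its difference of 1.44 (0.72 to 2.32) was the only one called, in the higher direction. Hes6, with the most reads (229 in each library), differed by -0.07 (-0.34 to 0.20). Hes5, a classical target in neural tissue, had 2 and 0 reads, and Hes2 and Hes3 were at or under 2 reads, so that a difference was not detectable at this depth. Among 7 genes described as Notch targets in other tissues, 5 were tested and none was called; Ccnd1 (cyclin D1) had 11967 and 11337 reads, a difference of -0.15 (-0.18 to -0.11).

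**Figure D4:**
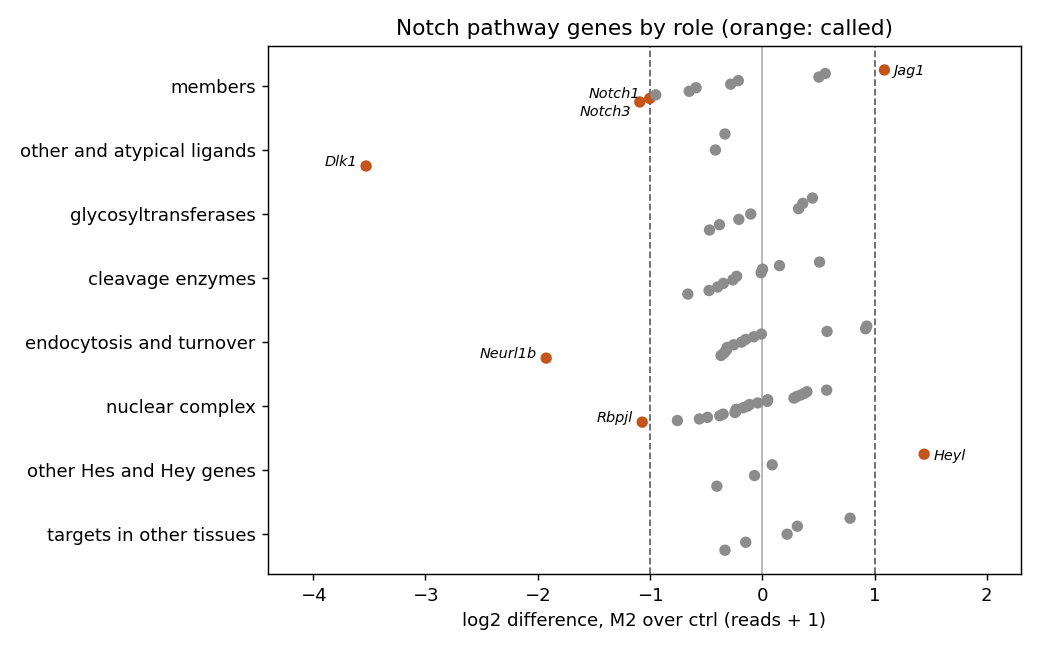
Log2 difference (M2 over ctrl, reads plus 1) of the 10 genes and of the tested genes of the 7 pathway lists, 1 point per gene, orange where called, with dashed lines at 2-fold and a grey line at the median of all genes. Most points lie between the lines, and Dlk1, drawn at -3.53 with 0 reads in M2, is only bounded.

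Cell type markers were counted beside these values, since in bulk RNA fewer cells of a type and less RNA per cell cannot be told apart. The 8 basal markers summed to 7780 CPM in ctrl and 7708 in M2, with 3 values higher and 5 lower in M2. The 1 called was Oxtr, lower at 8324 and 1920 reads (log2 difference -2.18). Krt5 (2053 and 2902 CPM) and Krt14 (2985 and 2393 CPM), picked with their values known, moved in opposite directions within this sum. The 6 general luminal markers summed to 3047 and 3004 CPM with 0 called, so markers of both compartments were detected in both libraries. The 7 hormone-sensing luminal markers summed to 416 and 175 CPM, a log2 difference of -1.25 (95% interval -1.30 to -1.20), with 4 called lower and 1 higher. Esr1, Pgr, Prlr and Foxa1 were called lower and Prom1 higher. Cited1 and Ly6a were higher in value but not called, so 3 of the 7 went against the sum. The 7 luminal progenitor markers summed to 2483 and 2906 CPM, with 3 called higher and 2 lower. Called higher were Cd14 (803 and 9114 reads), Itga2 (521 and 1933 reads) and Csn3 (5916 and 16755 reads), and called lower were Kit (15110 and 4973 reads) and Elf5 (5704 and 2776 reads), so this list had no single direction either. The part of either luminal list in the differences of the Notch genes was not tested.

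Per the study's methods the starting cells were sorted as CD24+ CD29hi after staining for the lineage markers CD45, CD31 and TER119, a gate set against leukocytes, endothelium and red cells and for epithelium. The 5 pericyte markers summed to 13.9 and 6.77 CPM, with 2 called lower and 0 higher, against 358 and 168 CPM of Notch3. Called lower were Pdgfrb (259 and 55 reads) and Abcc9 (29 and 7 reads). Rgs5 (22 and 28 reads), Cspg4 (72 and 101 reads) and Kcnj8 (1 and 4 reads) had more reads in M2, so this list had no single direction. The 6 fibroblast markers summed to 320 and 132 CPM, with 2 called lower and 1 higher. Called lower were Col1a2 (4463 and 1457 reads) and Col3a1 (1612 and 276 reads), and called higher was Dcn (51 and 157 reads). Of those not called, Pdgfra (607 and 822 reads) was higher in value, and Col1a1 (2057 and 1097 reads) and Lum (10 and 3 reads) were lower. Thus 2 of the 6 went against the sum. The part of either list in the lower Notch3 value was not tested. The 7 endothelial markers, which bear on Notch4 and Dll4, summed to 2.37 and 3.30 CPM, with 1 called higher and 2 lower. These were Pecam1, which encodes CD31 (33 and 76 reads), and in the lower direction Cdh5 (11 and 2 reads) and Kdr (11 and 0 reads). Of the 7 markers, 3 in ctrl and 5 in M2 were at or under 3 reads. The 11 macrophage markers summed to 64.9 and 82.8 CPM, of which Arg1, which is not specific to macrophages, gave 54.9 and 72.5 CPM. Of these markers 7 in ctrl and 6 in M2 were at or under 3 reads, and Tyrobp, Fcer1g and Adgre1 had 0 reads in both. Neither Cd68, at 170 reads in ctrl and 165 in M2, nor Csf1r, at 94 and 92, passed the thresholds, and the 1 macrophage marker called was Cd163, higher in M2 at 30 reads against 2, for a log2 difference of 3.30 (1.86 to 6.95).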

How the data were processed

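RNA was sequenced from 1 ctrl and 1 M2 library. Per the labels, a Qiagen column kit and a SMARTER mRNA library kit were used, whereas the study's methods name RNAiso Plus and a Hiseq X sequencer. The authors deposited raw read counts per gene, with gene positions and lengths; the submitters' processing notes name the builds GRCm38 and mm10, and the aligner, counter, annotation and use of strand are not given in the sources used here. Molecular identifiers are not mentioned, and all intervals and floors reflect counting error alone.

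Library sizes were scaled with TMM in edgeR 4.0.16 (R 4.3.3), with factors of 1.02 (ctrl) and 0.980 (M2). CPM use these sizes, and TPM use the length column. Log2 differences were taken with a pseudocount of 1 read. Intervals are 95% Clopper-Pearson limits of the share of reads, and for ratios of genes they come from the summed inverse counts. Each gene with at least 10 reads entered an exact binomial test (two-sided, scipy 1.17.1), adjusted by Benjamini-Hochberg over all genes tested. A quasi-likelihood fit needs replicates and was not run, and the edgeR exactTest was run with assumed coefficients of variation of 0.2 and 0.4. A count of 0 allows up to 3 reads, or 0.109 CPM in ctrl and 0.104 CPM in M2. The test was checked on simulated counts. Promoters were taken from a RefSeq table, in which 8 of the 10 genes were found. Mitochondrial genes took 4.83% and 4.11% of reads.

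The genes and lists were chosen with earlier results of these data known. The text names the 10 genes, the called genes of the pathway lists and the gene with the most reads in each list, and any other pathway gene is marked as chosen after its values were seen. Cell type markers were also named with their values known. Results of some list genes are not reported here, although the list counts include them.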

Additional observations from a re-analysis of the deposited data

How the results depend on the processing

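Values of the 10 genes were recomputed under 5 settings that can move them (3 other scalings and 2 pseudocounts), which gave 50 values, while the filters leave these values as they are. Of the 50, 47 kept their direction and side of the 2-fold threshold and 0 reversed. Notch1 fell to -0.999 with upper quartile scaling and -0.999 with relative log expression scaling, both just under 2-fold, which left 1 gene called lower under each, and Hes1 reached -1.01 with library totals. Jag1 ranged from 1.03 to 1.09 and Notch3 from -1.15 to -1.09. At 1.5-fold, 5 of the 10 genes were called lower, and at 4-fold 0 were called higher and 0 lower, as with assumed coefficients of variation of 0.2 and of 0.4.

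Among the other pathway genes, 0 were called higher under a filter of at least 1 CPM in each library, a filter that leaves out genes with few reads, 4 higher and 5 lower at 1.5-fold, 0 and 1 at 4-fold, 0 higher with a coefficient of variation of 0.2, and 0 in either direction with 0.4. Over all genes 797 were higher and 583 lower with at least 1 CPM in both, 2462 and 2143 at 1.5-fold, 616 and 494 at 4-fold, 964 and 691 with 0.2, and 175 and 130 with 0.4. Within-role ratios kept their direction with 1 read added to each count, their only alternative. Leaving mitochondrial genes out of TPM cannot change a share within a role, so the shares had no informative alternative. Depth limits Notch4, Dll4, Heyl and Dlk1. No paired analysis was possible because ctrl and M2 have 1 library each.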
